A study of Nothobranchius furzeri with 20 samples.

Results

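Skin of the turquoise killifish, Nothobranchius furzeri, was compared between 14 and 7 weeks of age, with 5 RNA-seq libraries at 14 weeks and 5 at 7 weeks, chosen by the age in their labels. They are 10 of the 20 libraries of a series that also holds 5 libraries at 10 weeks and 5 at 5 weeks. The ages of 14 and 7 weeks are taken here as old and young adult skin. Every library was made from total RNA of skin of male fish of the GRZ strain. The labels name no treatment, and age is the only label that separates the groups. Whether each library is a different fish is not stated. The p-values therefore weigh differences against library-to-library spread, some of which may be technical.

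The turquoise killifish lives in seasonal African ponds and has one of the shortest lifespans of any vertebrate kept in the laboratory, and the inbred GRZ strain is used to study ageing within months. Fish skin is a living, unkeratinised epidermis with mucus-secreting cells, over a dermis that holds collagen, scales and pigment cells. In a bulk library of such a tissue, fewer cells of a type and less RNA per cell cannot be told apart.

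Each value is a read count per gene ID. The deposited tables name genes by ID only and the RefSeq gene table (assembly NfurGRZ-RIMD1) lists 0 of the 26739 IDs, so they carry no symbol, function or cell type here. The labelled tissue could therefore not be set against marker genes. Genes are described by level, length, age profile and library. Libraries held 21581757 to 33838693 counts at 14 weeks, and those of 7 weeks held 22069927 to 29724151. Of the 26739 IDs, 19192 had enough counts to be tested and 7547 did not, of which 3757 had no count in any of the 20 libraries.

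Some libraries stood apart before any comparison. Levels are given as CPM, counts divided by library size after scaling between libraries. On log2 CPM, the leading principal component took up 42.9% of the variance and placed 14 weeks replicates 3 and 4 at 151.2 and 189.0, and 10 weeks replicate 4 and 7 weeks replicate 3 at 118.2 and 85.4, with the other 16 libraries between −76.2 and 45.3. Replicate numbers follow accession order and pair no libraries. Without these 4 libraries, 1726 genes were higher and 2020 lower at 14 than at 7 weeks, and 142 and 122 of them had not yet changed at 10 weeks by the rule used here. Of the 1726 and 2020 genes, 1193 and 1128 were also called in the fit of all libraries. Only 52 of the 142 and 59 of the 122 were also not yet changed in that fit.

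At 14 weeks, 1802 genes (9.39% of those tested) were higher and 1566 (8.16%) were lower than at 7 weeks, in edgeR's quasi-likelihood test at a Benjamini-Hochberg adjusted p under 0.05. Together they made up 17.5% of the genes tested, and 34.1% had an unadjusted p under 0.05. The change reached 2-fold in 987 of the higher genes (54.8%) and in 756 of the lower genes (48.3%), against 21.7% of all tested genes. It reached 4-fold in 195 higher and 74 lower genes. Over all 19192 tested genes it reached 4-fold in 987, of which 718 were not called. The median log2 fold change was 1.05 among the higher genes, with quartiles of 0.77 and 1.49. It was −0.97 among the lower genes, with quartiles of −1.32 and −0.74. Over all tested genes the median was 0.13. The counts moved by over 1.5 times without single libraries of 7 weeks, to 925 higher and 897 lower genes without replicate 2, and to 1164 and 1040 higher genes without replicates 1 and 4. DESeq2 gave 2825 higher genes and 1901 lower. With upper-quartile scaling, 1434 genes were higher and 1875 lower, so which direction held more genes depended on the scaling.

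**Figure D1:**
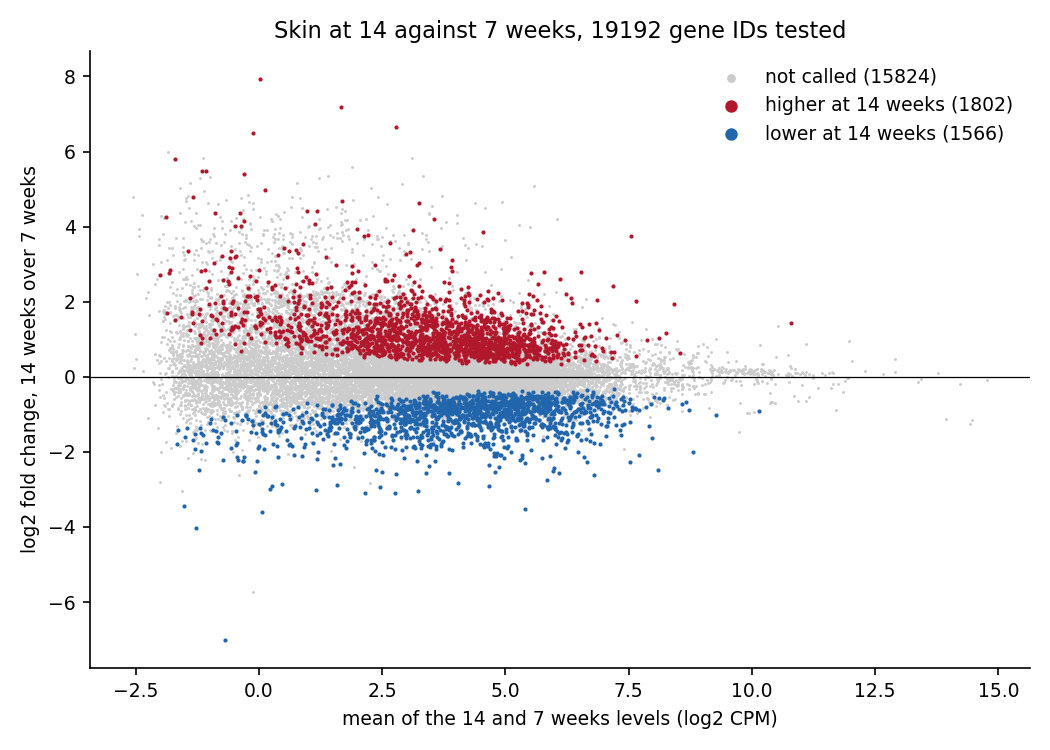
Each point is a gene ID, with its mean log2 CPM at 14 and 7 weeks on the horizontal axis and its log2 fold change, 14 weeks over 7 weeks, on the vertical axis. Red points are the 1802 genes higher at 14 weeks, blue points the 1566 lower, and grey points the genes not called.

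Many of these genes differed in every library. In 905 of the 1802 higher genes, each 14 weeks library lay above each 7 weeks library, and in 1012 of the 1566 lower genes each lay below. Over all tested genes this was so for 5.3% upward and 5.82% downward. A further 546 higher and 431 lower genes passed the highest or lowest 7 weeks library in 4 of the 5 libraries of 14 weeks. Other genes overlapped more widely, which part of the 14 weeks libraries or a single extreme 7 weeks library can bring about. Of the 7 weeks libraries, replicates 3 and 5 were the highest in 36.1% and 33.9% of the higher genes. Replicate 5 was the lowest in 63.2% of the lower genes. The 7 weeks range was passed in 3 of 5 libraries by 266 higher and 104 lower genes. It was passed in 2 of 5 by 83 higher and 14 lower genes. The shares over all tested genes for 4, 3 and 2 of 5 libraries were not computed. A test of the same difference chose these genes and favours such separation, so the counts are a description.

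The genes higher and lower at 14 weeks sat at different levels. Tiers were set by the larger of the 14 and 7 weeks means, in CPM, which is a level per library and not per gene length. Among genes of 1 to 10 CPM, 8.04% were higher and 4.51% lower at 14 weeks. Among the 9694 genes of 10 to 100 CPM, 12.1% were higher and 10.8% lower. Among the 1298 genes of 100 to 1000 CPM, 5.32% were higher and 15.0% lower. Of the 126 genes above 1000 CPM, 1.59% were higher and 0.794% lower. Calls were thus more often lower than higher between 100 and 1000 CPM, and the most abundant tier held few calls in either direction.

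In summed level, the lower genes stood far lower at 14 than at 7 weeks, and nearly as low at 10 weeks. The 1566 lower genes summed to 40000, 38700, 41600, 38800 and 38400 CPM in 14 weeks replicates 1 to 5, and to 81800, 98300, 69100, 85200 and 61900 CPM in 7 weeks replicates 1 to 5. The 14 weeks libraries lay close together, at 39500 ± 1320 CPM (SD, n = 5), and the 7 weeks libraries were spread, at 79300 ± 14200 CPM (SD, n = 5). The 1802 higher genes summed to 59200 ± 6720 CPM at 14 weeks, against 27100 ± 2990 CPM in libraries of 7 weeks (SD, n = 5 each). At 10 weeks the lower genes summed to 40600 ± 1820 CPM and the higher genes to 57500 ± 5010 CPM (SD, n = 5 each). In 5 weeks replicates 1 to 5 the lower genes summed to 67300, 69600, 55500, 42100 and 42300 CPM. These sums are over genes chosen for the difference and carry no test. The change was spread over many genes, since the 10 genes with the largest change in CPM carried 17.7% of the summed change of the higher genes and 11.0% of that of the lower genes.

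The question which of these genes had not yet changed at 10 weeks was answered from the comparison of 10 with 7 weeks in the same fit. It shares the 7 weeks libraries with the comparison of 14 with 7 weeks, so the values of both comparisons are not independent. Between 10 and 7 weeks 23.1% of tested genes were called, 10.5% higher and 12.6% lower. Of the 1802 genes higher at 14 weeks, 1097 (60.9%) were also called higher at 10 weeks. Of the 1566 genes lower at 14 weeks, 1221 (78.0%) were also called lower at 10 weeks. The median log2 fold change of the 1097 genes was 1.04 for 14 against 7 weeks and 1.09 for 10 against 7 weeks, and that of the 1221 genes was −1.01 and −1.11. These medians are a description, since both differences chose the genes.

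A gene was taken as not yet changed at 10 weeks if its adjusted p between 10 and 7 weeks was 0.05 or more and its log2 fold change there was under 0.5 in size. This held for 367 of the genes higher at 14 weeks (20.4%) and for 180 of those lower (11.5%), and for 48.8% of all tested genes. The remaining 338 higher and 165 lower genes missed the threshold at 10 weeks with a larger fold change, so their state at 10 weeks was not decided. A missed threshold does not show that a gene had stayed at its 7 weeks level. The 95% interval of the 10 against 7 weeks log2 fold change lay wholly within −1 to 1 for 259 of the 367 and for 165 of the 180, against 36.1% of all tested genes. The median log2 fold change between 10 and 7 weeks was 0.32 among the 367 genes and −0.34 among the 180. Since the genes were chosen for a difference from the same 7 weeks libraries, the sign of these medians is no evidence of a change at 10 weeks. Between 14 and 10 weeks the median was 0.53 among the 367 and −0.34 among the 180. For the 180 genes this is the same as between 10 and 7 weeks.

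The genes not yet changed at 10 weeks differed less between 14 and 7 weeks than the genes already called at 10 weeks. The median log2 fold change between 14 and 7 weeks was 0.85 for the 367 higher genes and −0.66 for the 180 lower ones. Of them, 129 (35.1%) and 22 (12.2%) reached 2-fold, against 21.7% of all tested genes. Both differences chose these genes, so the medians are a description. Their number moved with single libraries, the tool and the scaling. Leaving out 1 library gave 117 to 635 higher and 84 to 288 lower genes. Without 7 weeks replicate 2 there were 121 and 84, of which 93 and 52 were among the 367 and the 180. DESeq2 gave 649 higher and 281 lower genes, limma voom 231 and 222, upper-quartile scaling 239 and 252, and limma voom with library weights set per age 70 and 52. Asking also for an unadjusted p under 0.05 between 14 and 10 weeks left 210 higher and 61 lower.

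Between 14 and 10 weeks the count of called genes depended on the tool and on 1 library. Over all 20 libraries edgeR called 0 of 19192 genes, with a smallest adjusted p of 0.202, limma voom called 0 and DESeq2 called 270, of which 212 were higher. An unadjusted p under 0.05 was found for 3598 genes, 18.7% of those tested. The share was 17.1% among the 1802 genes higher at 14 weeks and 10.6% among the 1566 lower ones, close to or below that over all tested genes. It was 57.2% in the 367 and 33.9% in the 180, whose choice by a large 14 weeks and a small 10 weeks difference favours such values. Each 14 weeks library lay above each 10 weeks library in 10 of the 367, and below in 11 of the 180. Over all 19192 tested genes this was so for 84 (0.438%) and 75 (0.391%). The choice of the 367 and the 180 favours this separation too, so these counts are a description. Leaving out 14 weeks replicate 1, edgeR called 514 genes between 14 and 10 weeks, 323 of them higher.

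By library, the genes not yet changed at 10 weeks differed most in 14 weeks replicates 3 and 4. They are called late genes here for short. The name stands for the rule alone, since edgeR called no gene between 14 and 10 weeks in the main fit. The 367 genes not yet changed at 10 weeks summed to 7300, 7450, 14000, 13200 and 9030 CPM in 14 weeks replicates 1 to 5, and to 5350, 5210, 6550, 5360 and 6020 CPM in 7 weeks replicates 1 to 5. At 10 weeks they summed to 6440 to 8070 CPM. The 14 weeks libraries all lay above the 7 weeks libraries, but replicates 1 and 2 lay within the range of 10 weeks. Of the 367 genes, 95.9% and 97.5% exceeded the highest 7 weeks library in 14 weeks replicates 3 and 4, against 51.2%, 57.8% and 67.8% in replicates 1, 2 and 5. In the 10 weeks libraries this share ran from 29.2% to 55.9%. The share over all tested genes was not computed by library, so how far these values are particular to the 367 genes is not known.

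The 180 lower genes followed the same libraries in the other direction. They summed to 8510, 7980, 6380, 5890 and 8300 CPM in 14 weeks replicates 1 to 5, and to 12900, 12900, 10100, 12400 and 11500 CPM in 7 weeks replicates 1 to 5. Replicates 3 and 4 were the lowest of the 14 weeks libraries. At 10 weeks the sums were 8430 to 10800 CPM, which overlapped the 14 and the 7 weeks ranges. In 14 weeks replicates 3 and 4, 95.6% and 98.9% of these genes lay below the lowest 7 weeks library, and in replicates 1, 2 and 5 64.4%, 80.0% and 87.2% did. Among the 165 lower genes not decided at 10 weeks, 96.4% and 98.8% did in replicates 3 and 4, and 84.8%, 71.5% and 86.1% in replicates 1, 2 and 5. Among the 1221 lower genes called at 10 weeks it was 84.8% and 93.9%, and 94.8%, 91.5% and 96.8%. For these shares too, the value over all tested genes was not computed.

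Most genes already called at 10 weeks kept their call without these libraries. Without 14 weeks replicates 3 and 4, 973 of the 1097 higher genes (88.7%) and 1021 of the 1221 lower genes (83.6%) were still called between 14 and 7 weeks. Of the late genes, 73 of the 367 (19.9%) and 54 of the 180 were, and their median log2 fold change was 0.48 and −0.54. Fewer libraries were then tested, which can lose calls, and the part of this was not tested. With 14 weeks replicates 1 to 5 left out singly, 92.6%, 91.6%, 55.6%, 44.1% and 79.8% of the 367 were still called. Of the 180, 83.9%, 77.2%, 42.2%, 33.3% and 59.4% were. At least 76.5% of the 1097 and 82.2% of the 1221 were called in each of these fits, which all held the same number of libraries. A fit without 7 weeks replicate 4 chose the late genes anew and gave 120 higher ones, 105 of them among the 367. How many of the 367 were still called between 14 and 7 weeks in that fit was not computed. Without 14 weeks replicates 3 and 4, the median log2 fold change over all tested genes moved by −0.12. The totals were then 1759 higher and 2192 lower genes, with 134 and 123 not yet changed at 10 weeks. Of all genes higher and lower at 14 weeks in the fit of 20 libraries, 1151 and 1121 were among these. Of the 134 and 123 genes, 64 and 49 belonged to the 367 and the 180.

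**Figure D2:**
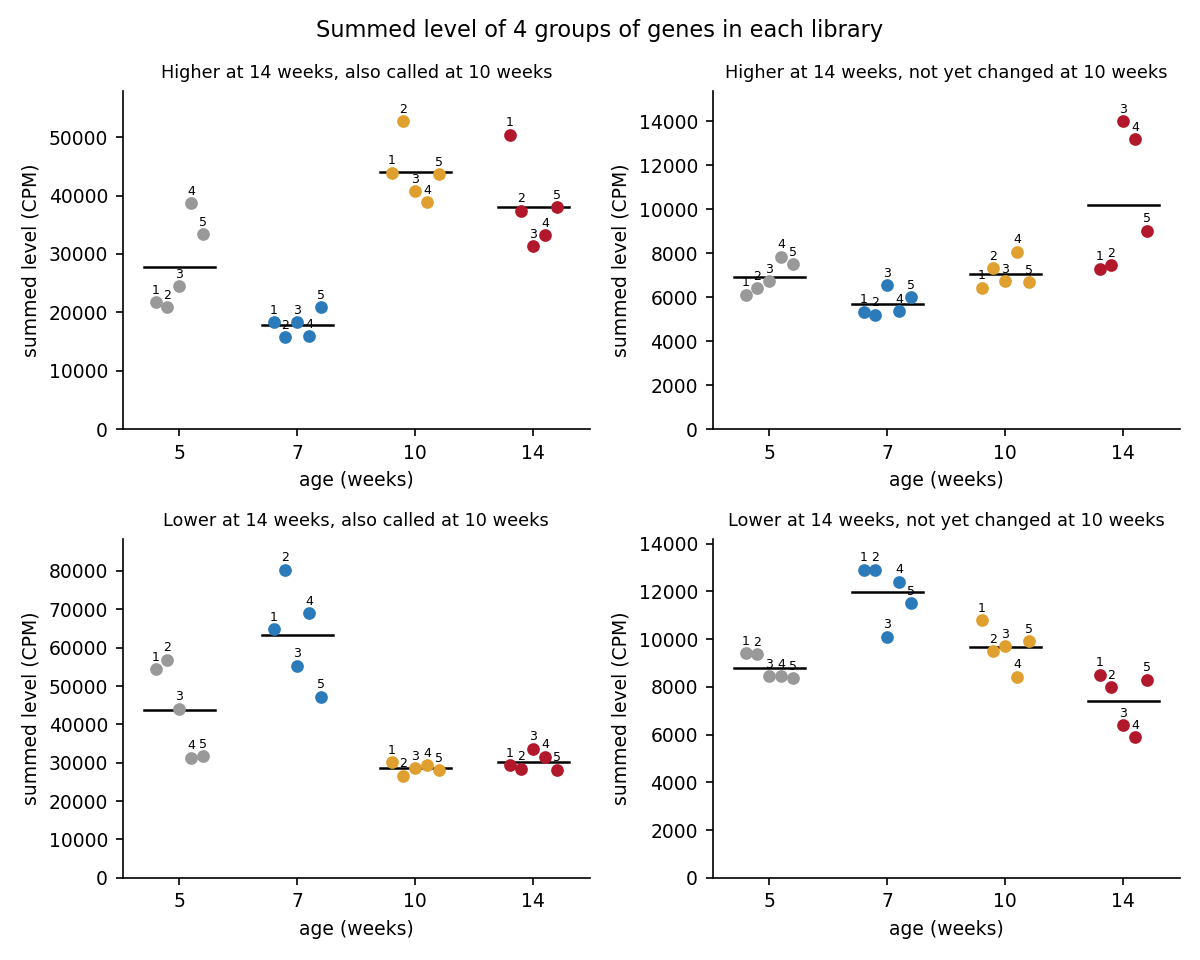
Summed CPM in each library, by age in weeks, for the genes higher (upper panels) and lower (lower panels) at 14 than at 7 weeks, split into those also called at 10 weeks (left) and those not yet changed (right). Points carry replicate numbers and bars are means of 5 libraries. Replicates 3 and 4 of 14 weeks, at 14000 and 13200 CPM, lead the upper right panel.

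The spread between libraries differed with the age and the group of genes. The median SD of log2 CPM among the 367 late higher genes was 0.52 at 14 weeks and 0.27 at 7 weeks, and 326 of them (88.8%) varied more at 14 weeks. Among the 1221 lower genes already called at 10 weeks it was 0.35 at 14 weeks and 0.33 at 7 weeks, with 53.7% more variable at 14 weeks. Over all tested genes the median was 0.60 at 14 weeks and 0.36 at 7 weeks, and 80.6% were more variable at 14 weeks. The median at 14 weeks was 0.47 over the 1802 higher genes and 0.37 over the 1566 lower genes, but 0.86 among the 338 higher genes not decided at 10 weeks. A test against replicate spread favours genes that vary less. A fit that lets spread differ by age, limma voom with library weights set per age, called 822 genes higher and 762 lower.

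The 5 weeks libraries, which are younger than both groups, did not all sit with 7 weeks. Between 14 and 5 weeks edgeR called 0 genes higher and 2 lower of the 19192 tested, at an adjusted p under 0.05. Almost none of the genes called between 14 and 7 weeks was thus called against the youngest age. Their median log2 fold change between 14 and 5 weeks was 0.48 in the 1802 and −0.50 in the 1566. Of the 1097 higher genes called at 10 weeks, 91.4% and 91.2% exceeded the highest 7 weeks library in 5 weeks replicates 4 and 5, against 45.9%, 41.9% and 62.3% in replicates 1, 2 and 3. Of the 1221 lower genes, 88.0% and 90.9% lay below the lowest 7 weeks library in replicates 4 and 5, against 19.1%, 15.6% and 51.2% in replicates 1 to 3. In these genes the levels of 14 weeks were thus also present in part of the youngest libraries. How large these shares are over all tested genes was not computed. The mean log2 CPM was lowest at 7 weeks of the 4 ages in 1676 of the 1802 higher genes and highest at 7 weeks in 1514 of the 1566 lower genes. Over all 19192 tested genes it was lowest at 7 weeks in 5767 and highest at 7 weeks in 5434. The choice of genes excludes the opposite extreme at 7 weeks and favours the extremes counted here. The highest mean stood at 14 weeks in 1070 of the 1802 higher genes and at 10 weeks in 657. The lowest stood at 14 weeks in 751 of the 1566 lower genes and at 10 weeks in 784. Over all tested genes the highest mean stood at 14 weeks in 5488 and at 10 weeks in 4898. The lowest stood there in 3924 and 5674.

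The median log2 deviation of the 367 genes from the 7 weeks mean was 0.13 to 0.48 in the 5 weeks libraries and 0.17 to 0.42 in the 10 weeks libraries. At 14 weeks it was 0.37, 0.43, 1.18, 1.12 and 0.53 in replicates 1 to 5. Replicates 1 and 2 of 14 weeks thus lay within the range of the 5 weeks libraries, and replicates 3, 4 and 5 above it.

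**Figure D3:**
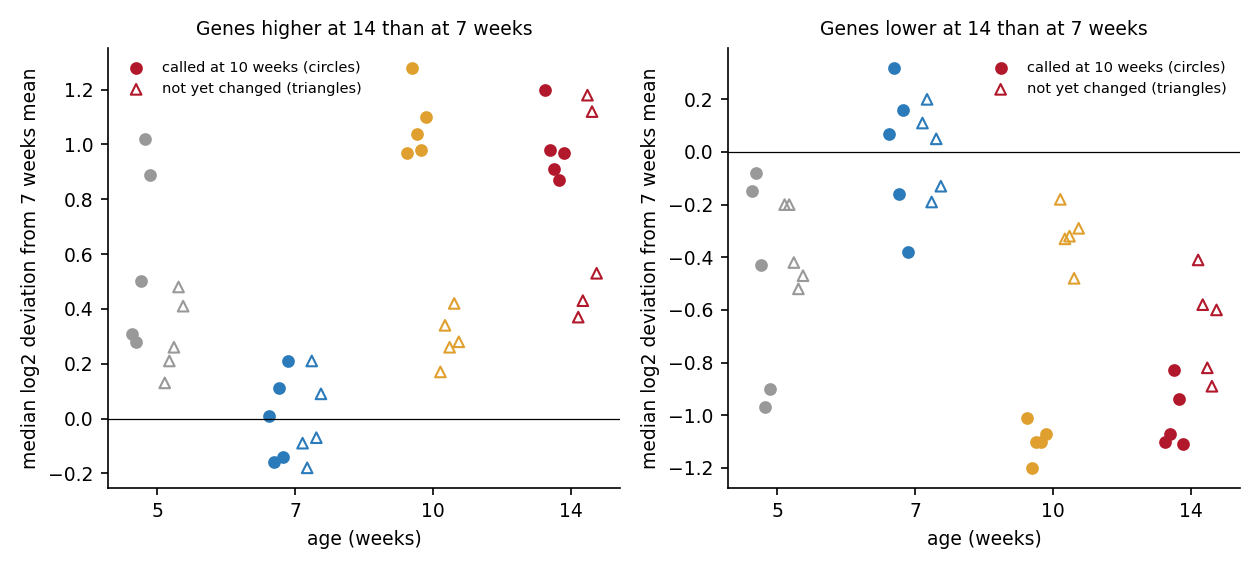
For each library, by age in weeks, the median log2 deviation from the 7 weeks mean over the genes higher (left) and lower (right) at 14 than at 7 weeks. Filled circles are genes also called at 10 weeks and open triangles genes not yet changed, where 14 weeks replicates 3 and 4 stand highest in the left panel.

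Since IDs carry no symbol, 4 are named, 1 for each direction and pattern: the largest change among genes whose 14 and 7 weeks libraries did not overlap. They were chosen for the size of their change. Nfu_g_1_001708 was higher at 14 weeks and already at 10 weeks. Its level was 748, 27.9, 11.7, 5.69 and 26.5 CPM in 14 weeks replicates 1 to 5, and 1.22, 0.652, 2.07, 0.918 and 3.12 CPM in 7 weeks replicates 1 to 5. Every 14 weeks library was higher than every 7 weeks library, and replicate 1 was far above the rest. The log2 fold change was 6.67 (SE 1.60; adjusted p = 0.00918, edgeR), and without 14 weeks replicate 1 it was 3.47 (adjusted p = 0.0398, edgeR). In limma voom it missed the threshold, with a log2 fold change of 4.50 and an adjusted p of 0.0597. At 10 weeks the level ran from 71.7 to 415 CPM, a log2 fold change of 6.99 over 7 weeks. At 5 weeks it stood at 165 and 37.8 CPM in replicates 4 and 5 and at 1.24 to 3.39 CPM in the others.

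Nfu_g_1_002693 was higher at 14 weeks and had not yet changed at 10 weeks. Its level was 41.4, 42.1, 43.7, 35.7 and 71.9 CPM in 14 weeks replicates 1 to 5, and 2.71, 0.552, 6.15, 28 and 3.41 CPM in 7 weeks replicates 1 to 5. The 14 weeks libraries were alike apart from replicate 5, and 7 weeks replicate 4 stood nearest to them. At 10 weeks the level was 21.3, 3.85, 2.59, 3.74 and 11.5 CPM, below all 14 weeks libraries. The log2 fold change was 2.52 between 14 and 7 weeks (SE 0.80; adjusted p = 0.0365, edgeR). It was 0.07 between 10 and 7 weeks, with a 95% interval of −1.52 to 1.66 that allows a change of either sign. Between 14 and 10 weeks it was 2.45 (unadjusted p = 0.00631, adjusted p = 0.202, edgeR). The call between 14 and 7 weeks was lost without 7 weeks replicate 1, 2, 3 or 5 or 14 weeks replicate 5, with an adjusted p of 0.0848, 0.0710, 0.0645, 0.0741 and 0.0667 in edgeR, while the log2 fold change stayed between 2.22 and 2.45. Without 7 weeks replicate 4, the highest of its age, the log2 fold change was 3.88 (adjusted p = 0.00658, edgeR). The lack of overlap was required by the choice of the gene.

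Nfu_g_1_014525 was lower at 14 weeks and already at 10 weeks. Its level was 12.8, 6.25, 18.4, 17.4 and 11.1 CPM in 14 weeks replicates 1 to 5, and 165, 247, 119, 147 and 86.5 CPM in 7 weeks replicates 1 to 5. The groups lay far apart. The log2 fold change was −3.53 (SE 0.66; adjusted p = 0.00277, edgeR), and −3.81 between 10 and 7 weeks, where the 10 weeks libraries ran from 4.62 to 19.9 CPM. The call held under every alternative run, with a log2 fold change between −3.99 and −3.29. At 5 weeks, replicates 4 and 5 stood at 7.87 and 10.2 CPM, within the 14 weeks range, and replicates 1 to 3 at 103 to 118 CPM, within the 7 weeks range.

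Nfu_g_1_015597 was lower at 14 weeks and had not yet changed at 10 weeks. Its level was 47.6, 35.8, 17.0, 11.4 and 24.7 CPM in 14 weeks replicates 1 to 5, and 76.1, 73.4, 54.0 and 61.9 CPM in 7 weeks replicates 1, 2, 3 and 5, with replicate 4 between replicates 3 and 5. All 14 weeks libraries lay below all 7 weeks libraries, and replicates 3 and 4 were the lowest. At 10 weeks the level was 48.7 to 72.1 CPM, above every 14 weeks library. The log2 fold change was −1.25 between 14 and 7 weeks (SE 0.31; adjusted p = 0.0109, edgeR) and −0.14 between 10 and 7 weeks, with a 95% interval of −0.78 to 0.49. Between 14 and 10 weeks it was −1.11 (unadjusted p = 0.00201, adjusted p = 0.202, edgeR).

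**Figure D4:**
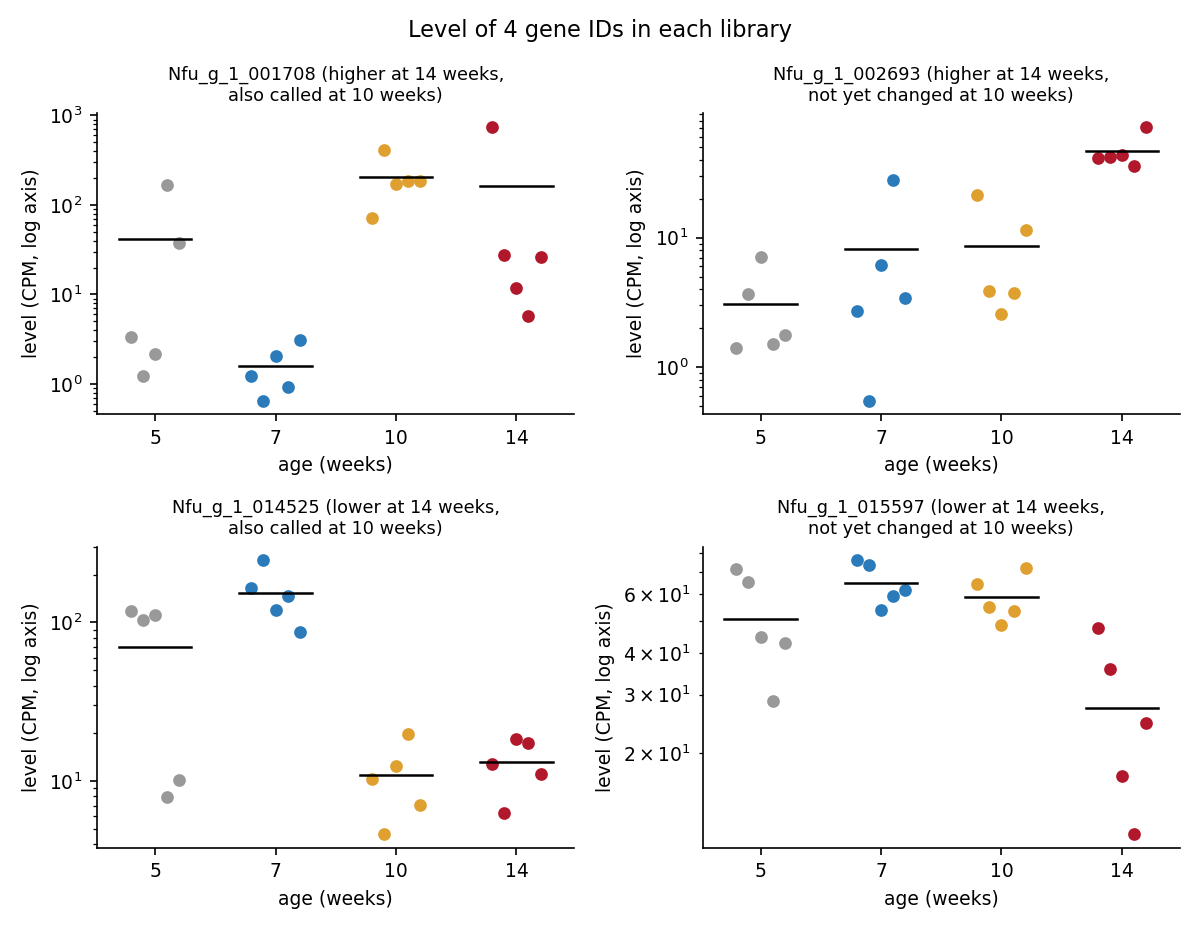
Level of 4 gene IDs in each library, in CPM on a log axis, by age in weeks. Points are libraries in replicate order and bars are arithmetic means of 5 libraries. By the choice of genes, the 10 weeks libraries do not overlap those of 14 weeks in the right panels. In the left panels they do not overlap those of 7 weeks.

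Gene length set 1 group apart, but not among genes of 1 to 10 CPM. Lengths in bases were recovered from the deposited counts and RPKM values. The median length of the 180 late lower genes was 3942 bases, against 3020 bases in the 1221 lower genes called at 10 weeks and 2641 bases in all tested genes with a length. It was 2482 bases in the 367 late higher genes. Of the late lower genes, 39.7% were 5 kb or longer, against 24.3% of the lower genes called at 10 weeks and 21.8% of all tested genes. Long genes gather more counts, so the same was looked at within a tier of level. Among genes of 10 to 100 CPM, the median was 3864 bases in 126 late lower genes, 3087 bases in 854 lower genes called at 10 weeks and 3259 bases in all tested genes. Among genes of 100 to 1000 CPM it was 9364, 4497 and 3814 bases, over 31, 153 and 1298 genes. Among genes of 1 to 10 CPM it was 1576, 1571 and 1955 bases, over 19, 205 and 6513 genes. In that tier the late lower genes were thus not longer. These are descriptions with no test.

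Long and short genes were also compared over whole libraries. Over tested genes of at least 10 CPM, the median log2 deviation from the 7 weeks mean of the 3250 genes of 5 kb or more, minus that of the 1229 genes under 1 kb, was −0.08 to −0.18 in the 14 weeks libraries. It was −0.36 to 0.00 in the 5 weeks libraries, −0.14 to 0.08 in the 7 weeks libraries and −0.23 to 0.09 in the 10 weeks libraries, so the range of 14 weeks lay within that of 10 weeks. In 14 weeks replicate 4, the deviation of genes of 5 kb or more was −0.20, the lowest of the 20 libraries. The part of such a length-related shift in the late lower genes was not tested.

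**Figure D5:**
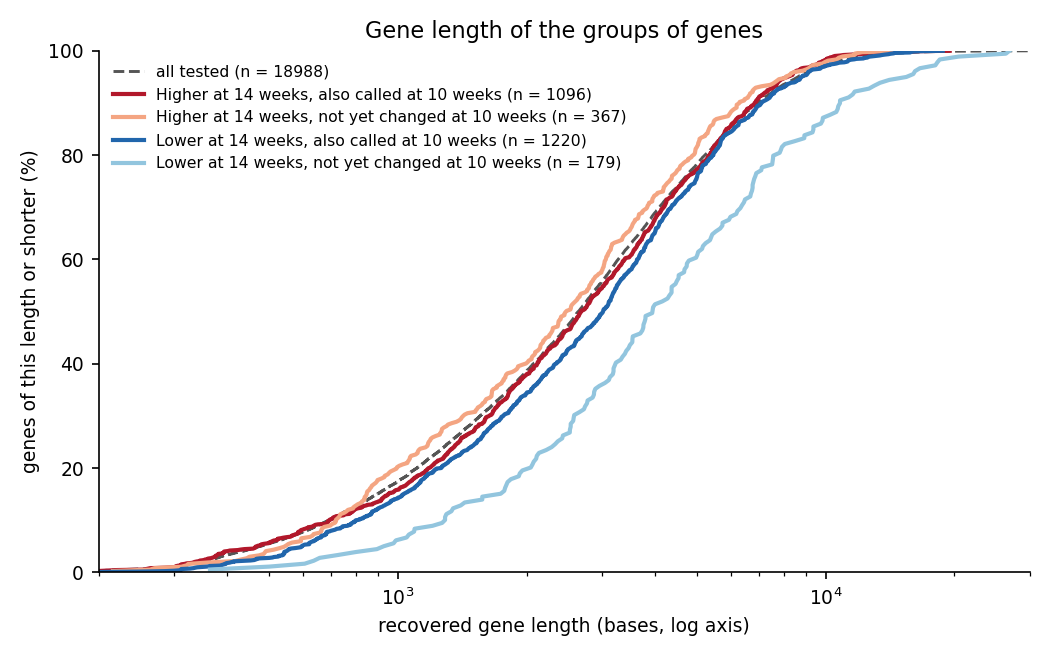
Share of genes, in percent, that are of a given length or shorter, with recovered gene length in bases on a log axis. Lines are the 4 groups of genes and all tested genes (dashed). The line of the 179 genes lower at 14 weeks and not yet changed at 10 weeks with a length lies right of the others, with a median of 3942 bases.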

How the data were processed

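The authors deposited raw counts per gene ID and RPKM values for 20 skin libraries; per the labels' protocols they are TruSeq RNA v2 libraries. The submitters' processing notes name featureCounts 1.4.6-p4, STAR 2.4.1d and CASAVA 1.8.2. The sources used here do not give genome build, annotation or strand setting, so reads of overlapping, antisense and near-identical genes may be mixed.

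Counts were filtered with filterByExpr and fitted with edgeR 4.0.16 in R 4.3.3 (TMM, glmQLFit, glmQLFTest) over 4 age groups, with 16 residual degrees of freedom and a biological coefficient of variation of 52.1%. Standard errors are the fold change over the square root of F. The prior count for log2 CPM was 2. Alternatives were other scalings and filters, DESeq2 1.42.0, limma 3.58.1 voom, fewer ages and left-out libraries.

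The deposited RPKM values carry depths that repeat down the rows in a series of 25, so they were used only for gene lengths. These gave back 99.1% of values within 0.1% or the last decimal, over IDs that reach an RPKM of 0.25. Of genes with abundant RNA, 65.6% had a length divisible by 3, so many gene models may hold no UTR.

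Named genes are, in each direction, the largest change with a mean of 10 CPM or more at the higher age and no overlap of 14 with 7 weeks: 1 also called at 10 weeks without overlap of 10 with 7 weeks, and 1 not yet changed without overlap of 14 with 10 weeks. Members, lists and rules were chosen with earlier results of these data known.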

Additional observations from a re-analysis of the deposited data

Results flagged for a closer look

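Of 32 groups of 5 values looked at for a single library far from the others, 4 were flagged. The cut flags about 1 in 20 groups of normally distributed values, but it was applied to CPM without a log. All flags fell on named genes, chosen for the size of their change, so their number cannot be judged against that rate. Nfu_g_1_001708 stood at 748 CPM in 14 weeks replicate 1, against 5.69 to 27.9 CPM in the other 14 weeks libraries. The same gene stood at 165 CPM in 5 weeks replicate 4, against 1.24 to 37.8 CPM in the other 5 weeks libraries. Nfu_g_1_002693 stood at 71.9 CPM in 14 weeks replicate 5, against 35.7 to 43.7 CPM in the others of that age. It stood at 28 CPM in 7 weeks replicate 4, against 0.552 to 6.15 CPM in the others of that age.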

How the results depend on the processing

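Genes higher at 14 than at 7 weeks numbered 1802, and 925 to 2165 on leaving out 1 library, with 1164, 925 and 1040 without 7 weeks replicates 1, 2 and 4. Genes lower numbered 1566, and 897 to 1650, with 897 without 7 weeks replicate 2. Those not yet changed at 10 weeks numbered 117 to 635 higher, with 154, 121, 120 and 212 without 7 weeks replicates 1, 2, 4 and 5 and 589, 635, 174 and 117 without 14 weeks replicates 1 to 4. They numbered 84 to 288 lower, with 105, 84 and 110 without 7 weeks replicates 1, 2 and 4, 288, 271 and 97 without 14 weeks replicates 1, 2 and 4, and 287 without 10 weeks replicate 4. DESeq2 gave 2825 higher genes, 649 and 281 not yet changed (higher and lower). limma voom gave 231 not yet changed higher. With library weights per age it gave 822 higher and 762 lower, with 70 and 52 not yet changed. Library totals alone gave 916 lower, with 194 and 82 not yet changed, and upper-quartile factors 239 not yet changed higher. Only 7 and 14 weeks gave 932 higher, and only 7, 10 and 14 weeks 218 not yet changed higher. Without the 4 libraries far along the first component 142 genes, and without 14 weeks replicates 3 and 4 134 genes, were higher and not yet changed. An adjusted p alone as the rule gave 705 and 345, the 95% interval rule 297 lower, and the rule with an unadjusted p between 14 and 10 weeks 210 and 61. The cause of these shifts was not tested. Fits of fewer libraries have less power, and totals went both ways. Genes called between 14 and 7 weeks numbered 3368 in the main fit. They numbered 3951 without 14 weeks replicates 3 and 4, and 1822 without 7 weeks replicate 2. No result reversed. No call of Nfu_g_1_014525 was lost in 34 settings, while 2 of 34 lost that of Nfu_g_1_001708, 8 that of Nfu_g_1_002693 and 1 that of Nfu_g_1_015597. The settings without 14 weeks replicates 3 and 4 and without 5 weeks replicates 4 and 5 were chosen after seeing the data. Counting error is small at these totals, so the spread between libraries sets the limits. No paired analysis was possible because replicate numbers follow accession order.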
